A study of Caenorhabditis elegans with 6 samples.

Results

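Changes that 2 oppositely modified *C. elegans* strains had in common were described here: one strain overexpressed *hlh-30*, the other carried an *hlh-30* knockout, and their 4 libraries were set as one group against 2 control libraries. All 6 libraries of the series entered the comparison, and the groups were taken from the sample labels. HLH-30 is the worm counterpart of mammalian TFEB, a transcription factor that turns on autophagy and lysosome genes and is held in the cytoplasm when TOR signalling is active. A gene that rises or falls steadily with the dose of HLH-30 should move in opposite directions in the overexpressing and the knockout strain. A gene that stands on the same side in both does not follow the dose in that way. This reading takes the dose as lowered in the knockout libraries, which could not be verified from the reads.

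Total RNA came from whole nematodes on adult day 1, with 2 libraries in each group. The control libraries were labelled WT and GMC101. GMC101 is not a wild-type strain: it expresses human Aβ in body wall muscle from the *unc-54* promoter and GFP in the intestine from the *mtl-2* promoter, and the Aβ background is shared by all 6 libraries. The overexpression libraries carried in addition *hlh-30* fused to GFP under its own promoter, brought in by a cross. The knockout libraries carried the *hlh-30(syb6883)* deletion, which by the methods removes the first 4 exons, in the *dvIs100* Aβ background. The deposited design text names the Aβ strain CL4176 in place of GMC101. By the methods, worms were synchronized and moved to a higher temperature as young adults, which induces Aβ. The labels do not say whether the 2 libraries of a group came from separate cultures, so the p-values measure only the spread between these libraries. Because both strains were compared with the same 2 control libraries, a peculiarity of those controls cannot be told apart from a change shared by both strains. The same holds for anything the 2 modified strains share in how they were made.

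The reads on genes ran from 18097803 to 19299560 in a library, and the 10 highest genes took 6.40% to 7.01% of them. The 2 control libraries and the 2 overexpression libraries were about equally close to each other, with SDs of the log2 difference of 0.205 and 0.208 over 10285 genes. The 2 knockout libraries differed more, with an SD of 0.495. They are called first and second in the order of their table, since their labels do not tell the columns apart. Levels are given as normalised reads, that is, reads divided by a size factor for the library, and a fold change is on the scale of log2(normalised reads + 1).

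The targeted gene was checked first. *hlh-30* (chromosome IV, 4015615 to 4019039 on the minus strand in the tables) had 3103 and 3325 normalised reads in the control libraries, 6019 and 5713 in the overexpression libraries, and 2130 and 3073 in the knockout libraries. The overexpression libraries were above all others, and both knockout libraries were below both controls, the second one only slightly. Knockout minus control was -0.33 (adjusted p = 0.358, limma). The reads cover the whole gene, including exons outside the deletion, so the deletion could not be verified from them. As one group, the 4 modified libraries had a log2 fold change of 0.27 ± 0.38 against control (SE, adjusted p = 0.798, limma with Benjamini-Hochberg adjustment).

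Among 16270 genes tested, 0 (0%) reached an adjusted p under 0.05 and a 2-fold change in the pooled limma test. The smallest adjusted p was 0.0832. At an unadjusted p under 0.05, 2324 genes (14.3%) passed, 1145 higher (7.04%) and 1179 lower (7.25%), and with a 2-fold change as well 298 did (1.83%), 267 higher (1.64%) and 31 lower (0.191%). The tools did not give the same answer: edgeR called 0 genes and DESeq2 called 69, of which 64 were higher, and in all 69 the 4 modified libraries lay on one side of both controls. The limma count was also 0 without either control library, but 92 without the second knockout library, of which 47 still showed no overlap once that library was put back. Without the first overexpression library 3 genes were called. Genes are therefore described by their value in each library.

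In 4351 genes (26.7%) the 4 modified libraries did not overlap the 2 controls, 2003 above (12.3%) and 2348 below (14.4%). The larger differences leaned upward: of the 307 genes (1.89%) that also differed at least 2-fold in the pooled mean, 260 (1.6%) were higher and 47 (0.289%) were lower. In 189 of them each strain on its own was at least 2-fold from control, 173 higher and 16 lower. The filter is uneven here. A gene low in control enters through any 2 of the 4 modified libraries, but one low in these only through both controls. With at least 10 normalised reads in every library, 152 genes in place of 298 had an unadjusted p under 0.05 (limma) and a 2-fold change. How much of the lean comes from the filter was not tested. The strains differed from each other at an unadjusted p under 0.05 in 19 of the 307 genes, against 11.1% of all genes, but the choice of genes with all 4 modified libraries on one side favours a small difference. An exact permutation test over the 15 ways to choose the groups cannot give a p below 0.0667, so it was not able to pass 0.05 for any gene.

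*catp-3*, which encodes the catalytic subunit of a cation-pumping P-type ATPase (chromosome V, 8076085 to 8079849), had 1721 and 1874 normalised reads in control, 3995 and 4747 with overexpression, and 5068 and 6287 in the knockout. All 4 modified libraries were more than 2 times the higher control. Its log2 fold change was 1.46 ± 0.16 (SE, adjusted p = 0.0832, limma). Overexpression minus knockout was -0.37, with a 95% interval from -0.68 to -0.07 that leaves out 0 before adjustment (adjusted p = 0.353, limma).

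*fat-7*, a stearoyl-CoA desaturase that makes oleic acid from stearic acid (chromosome V, 7151356 to 7153146), was nearly silent in control, at 4.23 and 8.13 normalised reads. It had 59.5 and 73.2 with overexpression and 36.1 and 33.1 in the knockout. The groups were far apart, which the rule for naming genes favours, and the log2 fold change of 2.82 ± 0.44 (SE, adjusted p = 0.123, limma) was the largest of the 12. Both control values were below the minimum of the filter, so *fat-7* entered the test only through its modified libraries. It was not tested where every library had to reach that minimum. With so few control reads the size of the ratio is uncertain. Of 19 desaturase and elongase genes tested, *fat-7* was the only one without overlap above control (5.26%), and 0 were below. Over all genes 12.3% were above and 14.4% below.

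*eea-1*, the homologue of an early endosome tether that binds RAB-5 and a phosphoinositide through its FYVE domain, had 405.2 and 374.0 in control, 906.6 and 1320.4 with overexpression, and 789.4 and 860.2 in the knockout. *abt-1*, an ABC transporter, had 149 and 135 in control, 301 and 340.0 with overexpression, and 378 and 501 in the knockout. Both genes were about 2 times control or more in every modified library, with log2 fold changes of 1.28 and 1.39. The lowest *abt-1* value among them was an overexpression library and the lowest *eea-1* value a knockout library.

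F21C10.7, a protein with immunoglobulin-like I-set domains of the kind found in giant muscle proteins, had 234.9 and 175.8 in control, 445 and 733 with overexpression, and 525 and 529.9 in the knockout. T28C6.7 had 1014 and 974 in control, 1788 and 2440.5 with overexpression, and 1910 and 2128 in the knockout, and it overlaps T28C6.8 on the other strand. The controls were the 2 lowest libraries in each, and the log2 fold changes were 1.43 and 1.05. Across 15570 protein-coding genes, the pooled fold change and gene length had a Spearman correlation of 0.0686, which describes genes and not replicates.

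The remaining higher genes were less well known. ZC247.1 had 550.2 and 573 in control against 974 to 1619 in the modified libraries, a log2 fold change of 1.29. H03A11.2 had 44.4 and 36.6 against 97.9 to 225, a log2 fold change of 1.89. The other 3 were ZC328.3, a GRAM-domain gene that overlaps *san-1* and R10A10.3 on the opposite strand, *ttc-39B* (C32D5.6) and F14D2.19, with log2 fold changes of 1.13, 1.01 and 1.24. The adjusted p of the 12 higher genes ran from 0.0832 to 0.123.

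**Figure D1:**
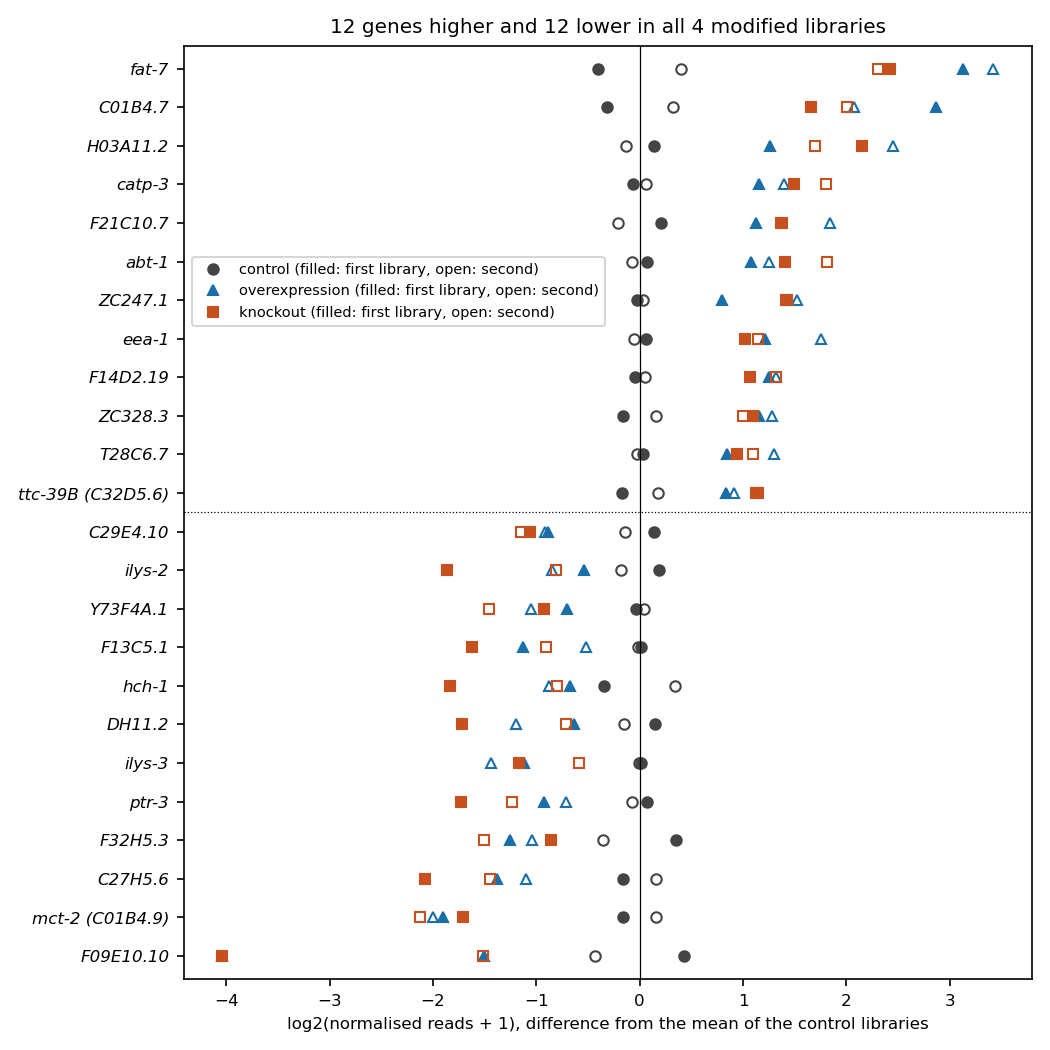
Level of the 24 named genes in each of the 6 libraries, as log2(normalised reads + 1) minus the mean of the control libraries (x axis), one gene per row. Circles are control, triangles overexpression and squares knockout libraries, filled for the first and open for the second, and in every row the 4 modified libraries lie on one side of both controls, as the rule for naming genes required.

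The strongest lower gene sat beside a higher one. *mct-2* (C01B4.9), which encodes a transporter of the major facilitator superfamily, had 289 and 359.8 normalised reads in control, 85.4 and 79.9 with overexpression, and 97.9 and 72.9 in the knockout. Every modified library was far below both controls, and the 2 strains were alike, with overexpression minus knockout at -0.03 and a 95% interval from -0.56 to 0.50. The log2 fold change was -1.94 ± 0.20 (SE, adjusted p = 0.0832, limma). C01B4.7, another major facilitator transporter, starts 6449 bp away on the opposite strand by the deposited coordinates. It stood the other way, with 26.5 and 41.7 in control, 248 and 144 with overexpression, and 107 and 136 in the knockout. Its log2 fold change was 2.15 ± 0.35 (SE, adjusted p = 0.123, limma).

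Both genes lie in a stretch of chromosome V that is present as a duplicate. The annotation of WBcel235 gives *mct-2* a second locus from 2375043 to 2379505 besides the one from 2483004 to 2494791. C01B4.7, from 2494235 to 2499001, has a second one named Y19D10A.4 from 2385956 to 2390722. In that annotation the longer *mct-2* locus runs past the start of C01B4.7, so the 2 genes overlap on opposite strands. Whether the reads tell the strands apart is not known. Reads of near-identical copies can be assigned to either, so the values of *mct-2* and C01B4.7 are uncertain. The second *mct-2* locus, Y19D10A.12, was listed with 12.7 and 15.2 normalised reads in control, 11.5 and 10.6 with overexpression, and 63.9 and 3.79 in the knockout. Those groups overlapped, and all but 1 library had few reads there. F56A4.12, next to *mct-2*, had 4.23 and 7.11 in control but 46.1 and 6.74 with overexpression and 31.9 and 4.73 in the knockout, high in the first library of each strain only. C01B4.6, on the other side, had 10.6 and 9.15 in control and 8.52 to 23.03 in the modified libraries. Of the 4 genes tested within 25000 bp of the pair, *mct-2* and C01B4.7 were the 2 whose groups did not overlap.

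**Figure D2:**
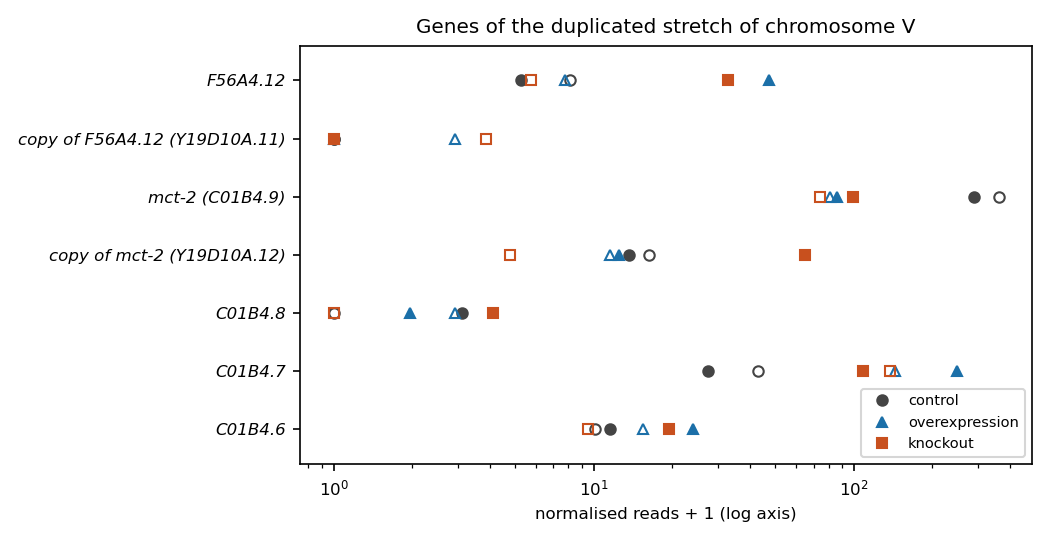
Normalised reads + 1 on a log axis for 7 genes of the duplicated stretch of chromosome V in each library, with circles for control, triangles for overexpression and squares for knockout (filled for the first library, open for the second). *mct-2* is lower and C01B4.7 higher in all 4 modified libraries, while the groups of the 5 other genes overlap.

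2 invertebrate lysozymes, enzymes that cut bacterial cell walls, were among the 12 lower genes. *ilys-3*, which is made in the pharynx and intestine and takes part in defence against Gram-positive bacteria, had 2068 and 2044 normalised reads in control, 946 and 759.9 with overexpression, and 916 and 1365 in the knockout. The controls were nearly equal, and the nearest modified library, the second knockout one, was still well below them. Its log2 fold change was -1.08 ± 0.20 (SE, adjusted p = 0.123, limma). Its neighbour *ilys-2* (chromosome IV, 2467681 to 2468879, beside *ilys-3* at 2464471 to 2465440) had 397 and 307 in control, 239.8 and 194 with overexpression, and 94.8 and 199 in the knockout. Another member, *ilys-5*, stood the other way with 95.2 and 116 in control, 303 and 466 with overexpression, and 1446 and 179.8 in the knockout, where the 2 libraries differed from each other by more than the strains did. Of 12 lysozyme genes tested, these 3 were the ones without overlap, 1 above (8.33%) and 2 below (16.7%). Those shares were near the 12.3% and 14.4% of all genes.

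*ptr-3*, a patched-related membrane protein, had 333 and 302 in control, 166 and 194 with overexpression, and 94.8 and 134 in the knockout. It was lower in the knockout than in the overexpression libraries, by 0.66 log2 units with an interval from 0.16 to 1.16 (adjusted p = 0.321, limma). *hch-1*, an astacin protease that digests the eggshell at hatching, had 176 and 284 in control, 139 and 121 with overexpression, and 61.8 and 128 in the knockout. *hch-1* was not on the list of astacins, neprilysins and related metalloproteases, which was made from gene names. Of the 58 genes of that list tested, 16 (27.6%) were above control without overlap and 1 (1.72%) below. Over all genes these shares were 12.3% and 14.4%. The 1 below was *zmp-3* (C31B8.8). *nas-8* had 27.5 and 21.3 in control, 52.8 and 62.6 with overexpression, and 56.7 and 77.6 in the knockout.

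The other lower genes were C27H5.6, C29E4.10, DH11.2, Y73F4A.1, F13C5.1, F32H5.3 and the noncoding RNA F09E10.10. C27H5.6 had 147 and 184 in control and 38.1 to 76.1 in the modified libraries, a log2 fold change of -1.50. F09E10.10 had 21.2 and 11.2 in control and between 0 and 4.797 in the modified libraries, too few reads for a firm ratio. The adjusted p of the 12 lower genes ran from 0.0832 to 0.247. For none of the 24 did the 2 strains differ at an adjusted p under 0.05 (smallest 0.321), and 3 did so before adjustment (*catp-3*, *abt-1* and *ptr-3*). DESeq2 called 11 of the 12 higher and 5 of the 12 lower genes. It gave *fat-7* no adjusted p, at a fold change above that of limma.

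Many genes for making, folding and degrading protein stood slightly below control in both strains. The chaperonin CCT folds actin and tubulin, and prefoldin hands them over to it. Of 14 CCT and prefoldin genes tested, 11 (78.6%) were below control in all 4 modified libraries, against 14.4% of all genes, and 0 were above. Their median log2 fold change was -0.28 with overexpression and -0.27 in the knockout. *cct-8* had 5058 and 5087 normalised reads in control, 3821 and 3477 with overexpression, and 3699.8 and 3684 in the knockout. The modified libraries were close to each other, and all were well below both controls.

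Aminoacyl-tRNA synthetases, which load amino acids on tRNAs, had 18 of 34 genes (52.9%) below and 1 (2.94%) above. Over all genes these shares were 14.4% and 12.3%. *mars-1*, the methionine enzyme, had 6841 and 6359 in control, 5096 and 4721 with overexpression, and 4877 and 4950.01 in the knockout. The 1 above was *aars-1*, with 370.3 and 340.5 in control and 427 to 520.1 in the modified libraries. Translation factors had 23 of 40 (57.5%) below and 1 (2.5%) above, with *eif-3.B* of the initiation factor complex at a log2 fold change of -0.41 ± 0.09 (SE, adjusted p = 0.127, limma). Nuclear pore proteins had 20 of 27 (74.1%) below and 2 (7.41%) above (*npp-21* and *mel-28*). *npp-13* had 2487 and 2417 in control against 1801 to 1843 in the modified libraries. RNA polymerase subunits had 9 of 22 (40.9%) below and 0 above, among them *ama-1*, the large subunit of RNA polymerase II, at -0.41. Among the most highly expressed of them the share below was close to that of all genes at that level, as given further on. These lists and that of the CCT and prefoldin genes were chosen after seeing the data, so their counts only describe what was seen.

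The proteasome degrades ubiquitin-tagged proteins. Of its 33 subunit genes, 21 (63.6%) were below control without overlap and 0 above, against 14.4% and 12.3% of all genes. All 33 had a negative fold change, with a median of -0.21. *rpn-2* of its regulatory particle had 10269 and 9876 in control, 8264 and 8243 with overexpression, and 8123 and 8676 in the knockout. The summed level of the subunits was 85.2% and 82.3% of the control mean with overexpression and 93.9% and 82.9% in the knockout. All 4 were below the controls, which lay at 98.3% and 101.7%. Normalised reads summed over all genes were also lower in every modified library than in control. As a share of all reads the subunits made up 0.609% and 0.592% with overexpression and 0.648% and 0.589% in the knockout. The controls were at 0.689% and 0.661%.

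Of the cytosolic ribosomal protein genes 42 of 85 (49.4%) were below and 0 above, against 14.4% and 12.3% of all genes. Their median was -0.19 with overexpression and -0.07 in the knockout, and their sums were 89.2% and 85.2% against 96.1% and 95.2% of control. As a share of all reads the knockout libraries, at 9.82% and 10.01%, overlapped the controls at 9.98% and 9.995%. By that measure the nuclear pore genes overlapped too, at 0.533% in the second overexpression library and 0.531% in the second control. Mitochondrial ribosomal proteins had 45 of 70 (64.3%) below and 0 above, with a median of -0.21. Nuclear-encoded subunits of the respiratory chain had 26 of 45 (57.8%) below, among them *ucr-2.3* with 3635 and 3105 in control against 2258 to 2535 in the modified libraries. For HSP70, HSP90 and related chaperones, 5 of 16 (31.2%) were below, among them the mitochondrial *hsp-6* at a log2 fold change of -0.33. Among the most highly expressed chaperones the share below was close to that of all genes at that level, as given in the next paragraph. None of these genes passed the adjusted threshold.

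**Figure D3:**
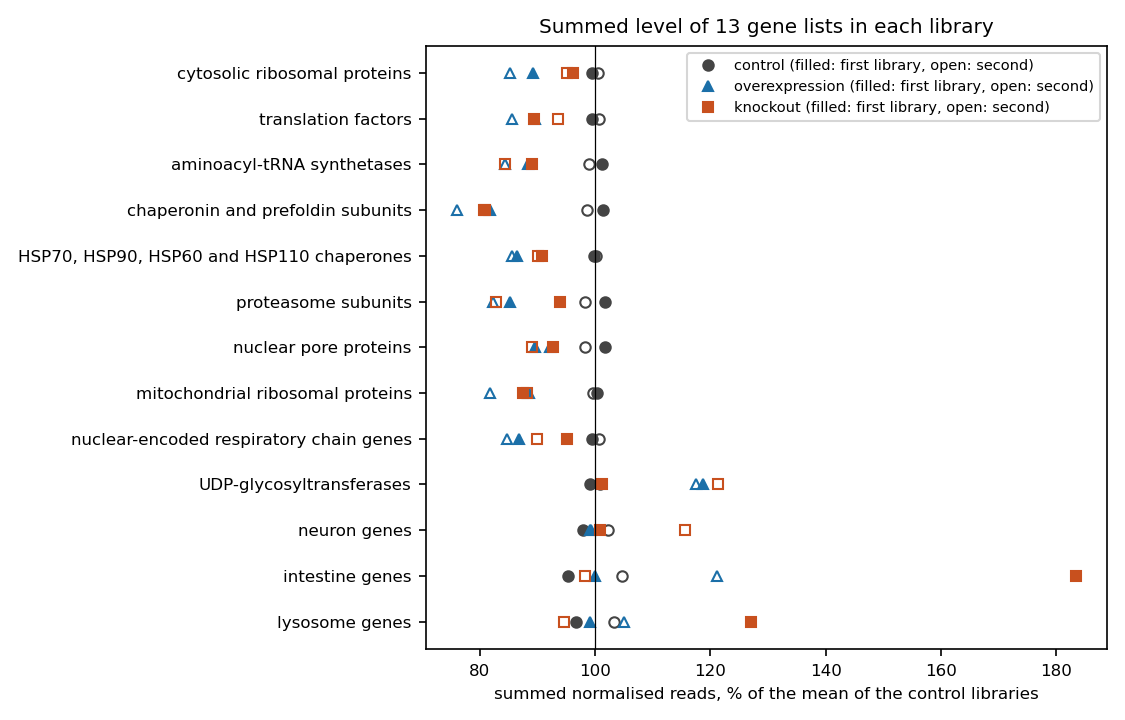
Summed normalised reads of 13 gene lists in each library, in % of the mean of the 2 control libraries (x axis), with circles for control, triangles for overexpression and squares for knockout (filled for the first library, open for the second). The 9 lists for ribosomes, translation, folding, proteasome, nuclear pore and respiratory chain lie between 76.1% and 96.1% in all 4 modified libraries, whereas the sums of neuron, intestine and lysosome genes overlap with control. Normalised reads of all genes together are also lower in every modified library than in control, and as a share of all reads the cytosolic ribosomal protein and nuclear pore lists overlap with control.

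Most of these genes are highly expressed, and the expression level itself went with the direction. Among protein-coding genes the share below control without overlap was 3.89%, 4.53%, 9.02%, 22.4% and 34.3% from the lowest to the highest quintile of mean normalised reads, while the share above stayed between 9.70% and 13.5%. The median log2 fold change went from 0.11 in the lowest to -0.10 in the highest quintile. In the highest quintile, where 34.3% of all genes were below, the share was 65.6% of 32 proteasome genes, 53.8% of 78 ribosomal protein genes and 63.9% of 36 respiratory chain genes. It was 38.5% of 13 HSP70, HSP90 and related chaperone genes and 40% of 10 RNA polymerase genes, close to that of all genes. In quintile 4, where 22.4% were below, it was 65.2% of 46 mitochondrial ribosomal protein genes. Whether level alone sets the rest of these counts was not tested.

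**Figure D4:**
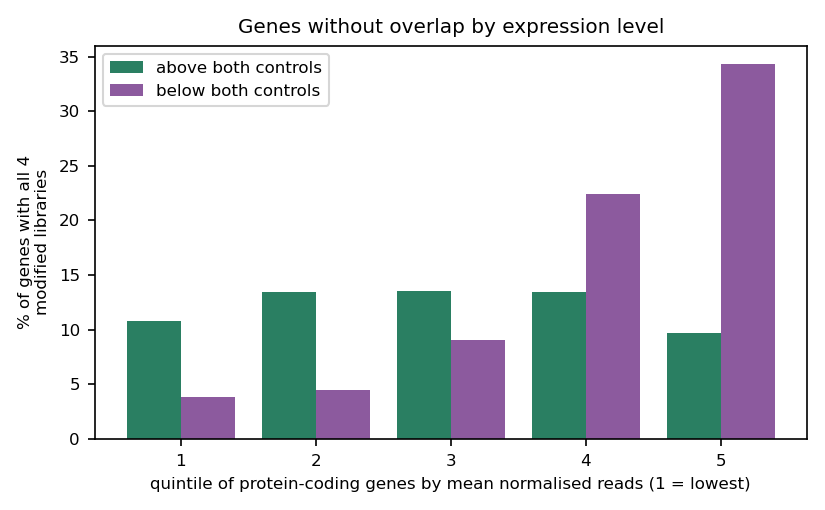
Percent of protein-coding genes (y axis) whose 4 modified libraries lay all above (left bar) or all below (right bar) both control libraries, in quintiles of 3114 genes by mean normalised reads (x axis, 1 is lowest). The share below rises from 3.89% to 34.3%, and the share above stays between 9.70% and 13.5%.

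Of the germline genes 12 of 23 (52.2%) were below control, against 14.4% of all genes, and 0 above, with a median of -0.17. *glh-2*, a germ granule helicase, had 3582 and 3495 in control, 2876 and 2762 with overexpression, and 2900.1 and 2912 in the knockout. 21 of the 23 fall in the highest quintile of expression, where 52.4% of them were below against 34.3% of all genes. As a share of all reads their sums overlapped, at 0.573% in the first knockout library and 0.571% in the second control. In RNA from whole worms, fewer cells of a type and less RNA per cell cannot be told apart. Oocyte and eggshell genes had 1 of 21 below and 0 above. The major sperm proteins had 0 of 30 on either side, with medians of -0.45 with overexpression and 0.31 in the knockout, so the strains did not share a direction there. The 6 vitellogenin genes also all overlapped.

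Neuron genes leaned upward. 9 of 22 (40.9%) were above control without overlap, against 12.3% of all genes, and 1 was below. *unc-104*, the kinesin that carries synaptic vesicle precursors, had 369 and 390.3 in control, 611 and 672 with overexpression, and 599 and 739.99 in the knockout. All modified libraries were over 1.5 times control, and the log2 fold change was 0.78 ± 0.12 (SE, adjusted p = 0.123, limma). *unc-13*, needed to prime synaptic vesicles, had 605 and 616 in control against 694 to 789 in the modified libraries. *snb-1*, the synaptic vesicle protein synaptobrevin, was the 1 below, at 4543 and 4459.8 in control against 3822 to 4297. The summed level of the 22 genes overlapped, at 97.8% and 102% in control and 99.0% to 116% in the modified libraries. Neuropeptide and insulin-like genes had 15 of 127 above and 3 below, 11.8% against 12.3% of all genes.

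Intestine genes had 7 of 16 (43.8%) above and 0 below, against 12.3% and 14.4% of all genes, with medians of 0.43 and 0.38 in the 2 strains. Their summed level overlapped, at 183% and 98.2% of the control mean in the 2 knockout libraries and 95.4% and 105% in control. The intermediate filament genes *ifb-2* and *ifc-2*, which build the layer beneath the intestinal brush border, were both above. *ifb-2* had 987 and 1147 in control, 1877 and 2373 with overexpression, and 2015 and 1289 in the knockout. *mtl-2*, a metallothionein whose promoter also drives the GFP marker of the Aβ strain, had 148 and 126 in control, 236 and 265 with overexpression, and 240.1 and 472 in the knockout. Its second knockout library was far above the other modified ones, and the log2 fold change was 1.08 ± 0.28 (SE, adjusted p = 0.167, limma). *elt-2*, the transcription factor that defines the intestine, overlapped, with 373 and 460.4 in control and 383 to 652 in the modified libraries. *unc-54*, the myosin whose promoter drives Aβ, had 86094 and 82553 in control and 63731 to 73584 in the modified libraries, a log2 fold change of -0.28. Body wall muscle genes as a list had 3 of 20 (15%) below and 1 (5%) above, against 14.4% and 12.3% of all genes. The 1 above was *unc-22*.

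Some lysosome genes stood higher in both strains. The list was made from gene names, and whether each member is a target of HLH-30 was not checked. 24 of 125 (19.2%) were above control without overlap and 12 (9.6%) below, against 12.3% and 14.4% of all genes. *lipl-5*, a lysosomal lipase, had 1148 and 1589 in control, 2687 and 2103 with overexpression, and 3263 and 2152 in the knockout. *asm-2*, an acid sphingomyelinase, had 242 and 265 in control, 431 and 427 with overexpression, and 654 and 486 in the knockout. *pmp-1*, an ABC transporter of the peroxisomal membrane protein family, had 319.5 and 330.3 in control, 559 and 638 with overexpression, and 539 and 482 in the knockout. In each the lowest modified library was above the higher control, with log2 fold changes of 0.89, 0.95 and 0.76. *lmp-2*, a lysosomal membrane protein, and *aman-3*, an alpha-mannosidase, had 0.78 and 1.03. *aman-1*, another alpha-mannosidase, stood lower, with 202 and 187 in control, 123 and 133 with overexpression, and 92.8 and 165 in the knockout. *pmp-5*, of the same family as *pmp-1*, was lower too. It had 2120 and 1842 in control, 1369 and 929 with overexpression, and 208 and 1053 in the knockout. Its log2 fold change was -1.44 (adjusted p = 0.359, limma).

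Of 40 autophagy genes 5 (12.5%) were above, near the 12.3% of all genes, and 11 (27.5%) below. In the highest quintile of expression 25% of 16 were below against 34.3% of all genes, and in quintile 4 36.8% of 19 against 22.4%. *atg-2*, which moves lipids to the growing autophagosome, had 2198 and 2312 in control, 3003 and 3465 with overexpression, and 2861 and 3763 in the knockout. The genes of the TOR complex on the list were also above: *let-363*, the TOR kinase, had 3165 and 3250.3 in control, 3919 and 4389 with overexpression, and 3609 and 3849 in the knockout, and *daf-15*, the raptor homologue, had a log2 fold change of 0.35. *unc-51*, the kinase that starts autophagy, stood below, with 1514 and 1532 in control against 1199 to 1287 in the modified libraries. These differences were under 2-fold, and the adjusted p of *atg-2*, *daf-15*, *unc-51* and *let-363* ran from 0.135 to 0.196 (limma).

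Among other families with more members above than the 12.3% of all genes were nuclear hormone receptors (38 of 197, 19.3%), UDP-glycosyltransferases (15 of 63, 23.8%), which attach sugars to foreign compounds, C-type lectins (23 of 138, 16.7%), and MATH and BTB domain genes (18 of 89, 20.2%). Metal homeostasis genes (7 of 30, 23.3%, with 20% below) and glutamine/asparagine-rich genes (12 of 62, 19.4%) also had more. F-box A genes (25 of 159, 15.7%) and cytochrome P450 genes (10 of 69, 14.5%) were near the share of all genes. Among these families only the UDP-glycosyltransferases had a summed level above both controls in all 4 modified libraries. The first knockout library was so by a small margin, at 101.2% of the control mean against 100.9% in the second control. The C-type lectin sum ran from 82.1% to 145% of the control mean in the modified libraries. *ugt-8* had 261 and 307 in control, 597 and 611 with overexpression, and 382 and 643 in the knockout. *clec-160* had 196 and 199 in control, 311 and 338 with overexpression, and 337 and 307 in the knockout. *nhr-43* had 496 and 533 against 689 to 810.0 in the modified libraries. Members of such families can be near-identical, so their reads are uncertain. Antioxidant genes had 8 of 22 (36.4%) below and 3 (13.6%) above, against 14.4% and 12.3% of all genes. The catalase *ctl-3* had 1082 and 1176 in control, 822 and 735 with overexpression, and 705 and 793 in the knockout. In peroxisomal fatty acid breakdown, *daf-22*, a thiolase that shortens ascaroside side chains, had 2108 and 2044 in control, 1578 and 1559 with overexpression, and 1614 and 1491 in the knockout. Of the 61 genes for fatty acid activation and beta-oxidation, 15 (24.6%) were below and 1 above, against 14.4% and 12.3% of all genes. The share below was 47.8% of 23 in the highest quintile, against 34.3%, and 23.1% of 13 in quintile 4, near the 22.4% of all genes there.

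**Figure D5:**
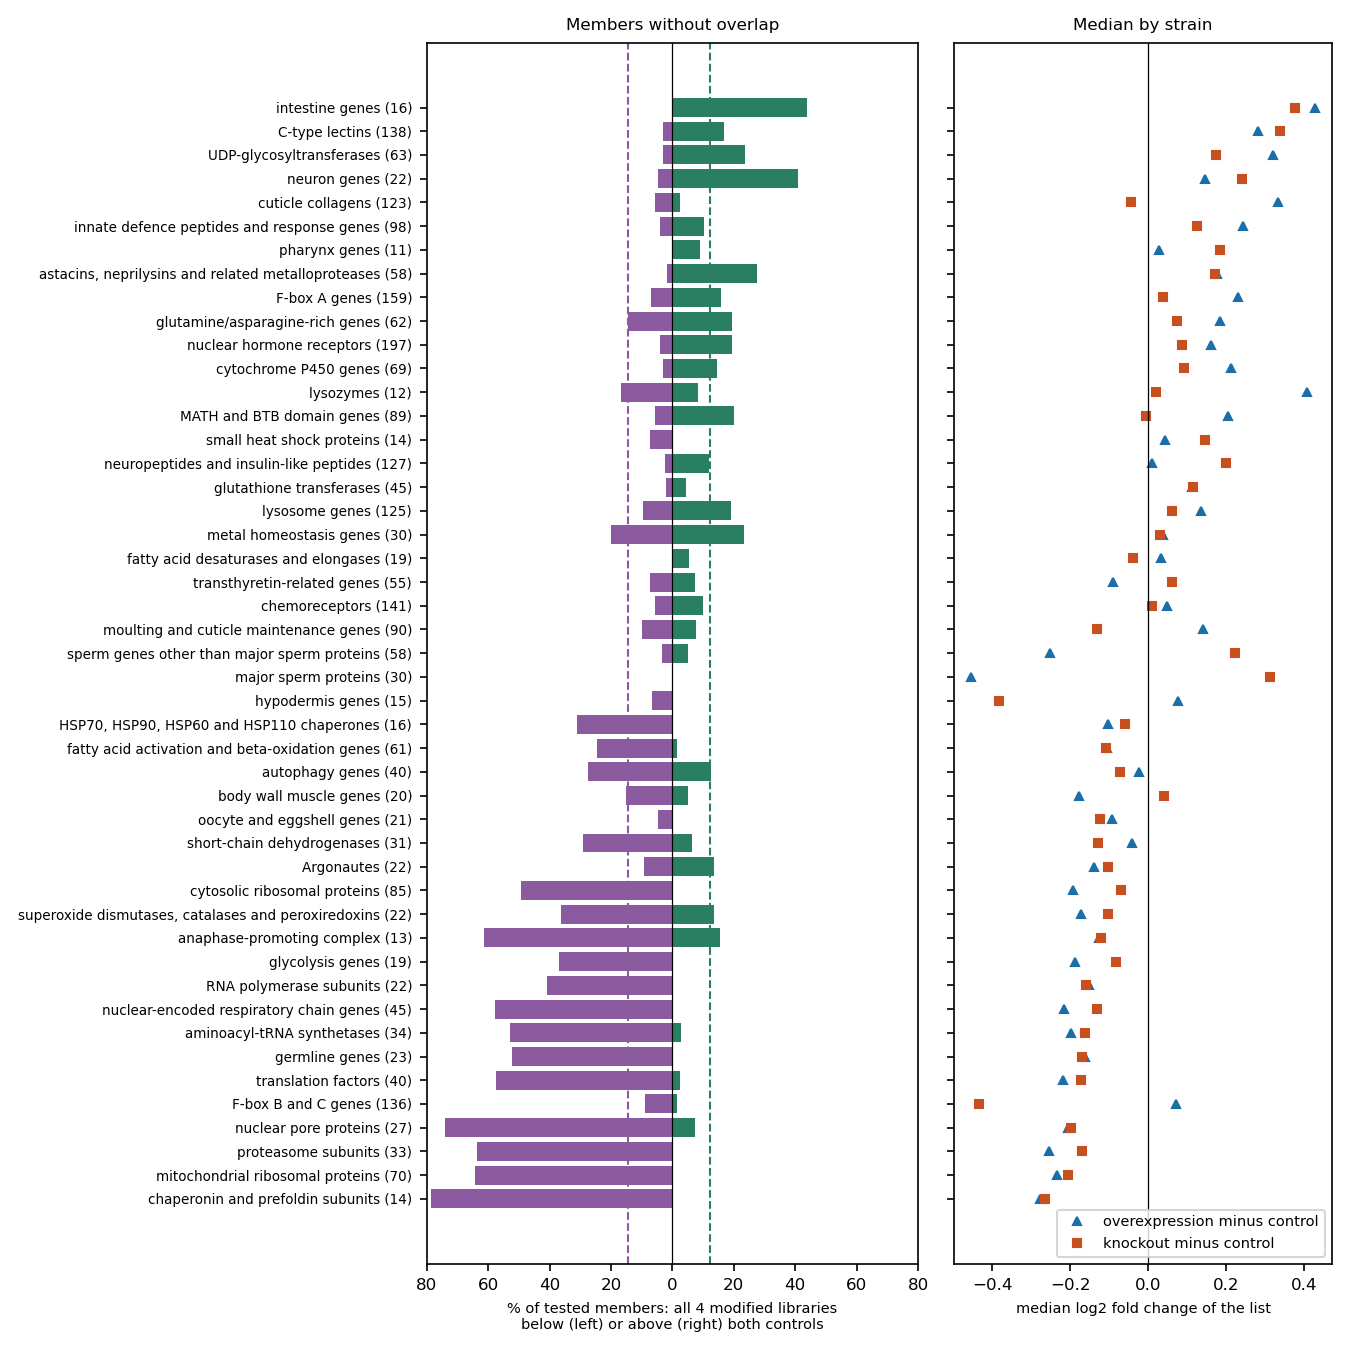
Left, percent of tested members of each gene list (number in brackets) whose 4 modified libraries lay all below (left bars) or all above (right bars) both controls, with dashed lines at the shares of all genes tested, 14.4% below and 12.3% above. Right, median log2 fold change of each list with overexpression (triangles) and in the knockout (squares): the 2 strains lie close together for the protein synthesis and degradation lists and apart for the major sperm proteins, cuticle collagens and F-box B and C genes.

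Lists on which the strains parted show what the pooled comparison leaves out. Of 123 cuticle collagens, 3 (2.44%) were above and 7 (5.69%) below without overlap, against 12.3% and 14.4% of all genes. Their medians were 0.33 with overexpression and -0.04 in the knockout. *rol-6*, a collagen gene whose dominant allele is a common injection marker, had 31.7 and 14.2 normalised reads in control and 15.5 and 40.7 in the knockout but 1029 and 1016 with overexpression. Of 136 F-box B and C genes, 2 (1.47%) were above and 12 (8.82%) below, both under the shares of all genes. Their medians were 0.07 with overexpression and -0.43 in the knockout. Between the 2 strains themselves, 17 genes (0.104%) differed at an adjusted p under 0.05 and 2-fold.

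Some genes were near 0 in both controls. *nhx-6*, a sodium-proton exchanger, had 1 and 3 reads in control, 11 and 24 with overexpression, and 40 and 31 in the knockout. *fbxa-25*, an F-box gene, had 0 and 0 in control, 3 and 3 with overexpression, and 13 and 11 in the knockout. These are reads before normalisation, and counts this low carry little precision. A total of 24 of the 16270 genes tested had no more than 3 reads in either control and more in every modified library. Genes this low in control could pass the filter only through modified libraries, so the count is one-sided by construction. Genes near 0 in the modified libraries were not counted.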

How the data were processed

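RNA from whole nematodes was sequenced in 6 libraries, 2 control, 2 *hlh-30* overexpression and 2 *hlh-30* knockout. The authors deposited 2 tables, 1 for each strain against the same controls, with a signal per gene and library that is its reads divided by a size factor. Per the labels' processing notes the tools were HISAT2, featureCounts and DESeq2, with no versions. The genome build and strandedness are not given in the sources used here. The tables also hold group means, log2 fold changes and p-values deposited by the authors, raw and adjusted, which were not used.

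The tables list 22588 and 22380 genes, and the 21498 in both were joined. Every value was a whole number of reads (within 0.001) once divided by what 1 read is worth in its column. The control reads, recovered from each table on its own, were equal for all 21498 genes. The 6 libraries were rescaled together by the median of ratios.

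Log2(normalised reads + 1) was fitted with limma 3.58.1 (R 4.3.3) for genes that reached 10 normalised reads in 2 or more libraries, with a mean trend and Benjamini-Hochberg adjustment over 16270 genes, as 4 modified against 2 control libraries. A fit of 3 groups gave each strain and the difference between strains. The threshold was an adjusted p under 0.05 and a 2-fold change, as in the methods. The log2 scale with 1 added understates differences of low genes. edgeR 4.0.16 and DESeq2 1.42.0 on the recovered reads, TMM scaling, other filters, another pseudocount, a replicate block and each library left out were alternatives.

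The genes named are *hlh-30*, *rol-6*, *unc-54*, *mtl-2*, and the 12 higher and 12 lower genes with no overlap between groups and a 2-fold change that had the smallest p. Members of lists named beside a count were chosen from those without overlap after their values were seen. The comparison, the genes and the lists were chosen with earlier results of these data known, and 5 lists (aminoacyl-tRNA synthetases, CCT and prefoldin, nuclear pore, translation factors and RNA polymerase) after seeing the data of this comparison. Lists were made from gene names, matched for 98.5% of annotated genes to the Ensembl annotation of WBcel235, with which 99.98% of positions in the tables overlapped. Coordinates are those of the tables, and those of duplicate loci are from that annotation. Gene and promoter sequences were not used here.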

Additional observations from a re-analysis of the deposited data

Results flagged for a closer look

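5 of 77 groups of 4 modified libraries had 1 library far from the other 3, judged by its gap to the nearest library as a share of the whole range, and about 1 in 20 groups would be picked out by chance. For *mtl-2* the share was 0.878, with 472 normalised reads in the second knockout library against 236 to 265 in the other 3. For the summed neuron genes it was 0.887, with the second knockout library at 116% of the control mean and the others at 99.0% to 101%. For the summed superoxide dismutase, catalase and peroxiredoxin genes it was 0.868, for the F-box A genes 0.953, and for the mitochondrial ribosomal proteins 0.845, where the second overexpression library was lowest at 81.7% and the others lay at 87.5% to 88.5%. *rol-6* differed between the strains, with overexpression minus knockout at 5.29 log2 units and a 95% interval from 4.13 to 6.45 (adjusted p = 0.0154, limma).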

How the results depend on the processing

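The count of genes at an adjusted p under 0.05 and 2-fold was 0 in the limma comparison as reported, and also 0 with a pseudocount of 0.1, without a filter, with at least 10 normalised reads in every library, with TMM scaling, without the mean trend, with edgeR and with the replicate block. It was 2 in the fit of 3 groups with the mean of both strains (*catp-3* and *apc-10*, of which *apc-10* had 609 and 616 normalised reads in control, 577 and 535 with overexpression, and 36.1 and 35.01 in the knockout). It was 69 with DESeq2 and, in fits of 3 groups added after seeing the data, 3 with edgeR and 63 with DESeq2. DESeq2 called 59 of the same genes in both of its fits. Leaving out each library in turn gave 0 to 92 genes, with 92 without the second knockout library, 3 without the first overexpression library and 0 otherwise, and 31 of the 92 were among the 69. With the unadjusted p and 2-fold, 298 genes passed. The cause of these differences was not tested. The replicate numbers did not pair the samples: same-numbered libraries had correlations of their deviations of 0.03, -0.08 and -0.04, and with the replicate block 2162 genes had an unadjusted p under 0.05 in place of 2324. The count for the difference between the strains was 17, and 2 without the mean trend. None of the 28 named genes passed the threshold as reported. Over their 473 alternative values, 0 changed direction and 57 moved past it. The median fold change of 39 of 49 lists kept one sign in every setting tried, and that of 47 in every scaling.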

Other observations

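The first knockout library stood above the other modified libraries in some genes. *bcf-1* (F57F4.4) had 64.5 and 94.5 normalised reads in control, 366 and 659 with overexpression, and 2241 and 102 in the knockout. Its neighbour *gfi-1* had 73.0 and 75.2 in control, 282 and 511 with overexpression, and 1339.8 and 99.4 in the knockout. *clec-70*, a C-type lectin, had 39.1 and 73.2 in control, 136 and 228 with overexpression, and 1147 and 101 in the knockout. In these 3 genes the second knockout library was closest to control, so their place among the genes without overlap rests on a small margin. Of the 307 genes without overlap and at least 2-fold from control, 17 had the first knockout library at more than 2 times every other modified library, 5 the second knockout library, 3 the first and 6 the second overexpression library. In 140 all 4 modified libraries lay within 2 times of each other.

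The 307 genes were spread over all 6 chromosomes, and made up 2.77% of the genes tested on chromosome V and 2.42% on X, against 0.949% on I, 1.09% on III, 1.91% on IV and 1.995% on II.

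Argonaute genes carry small RNAs in gene silencing, and 19 of the 22 tested had a fold change below 0. In the highest quintile of expression, which holds 15 of the 22, their median log2 fold change was -0.11. That of all protein-coding genes in that quintile was near it, at -0.10. *rde-1*, needed for the response to double-stranded RNA, had 1398 and 1346 normalised reads in control, 1873 and 1979 with overexpression, and 1748 and 1841 in the knockout. *csr-1*, which protects germline transcripts, had 7745 and 7515 in control, 6009.7 and 6055 with overexpression, and 6067 and 6938 in the knockout. Of the 22, 3 (13.6%) were above control and 2 (9.09%) below without overlap, near the 12.3% and 14.4% of all genes.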
